A study of Homo sapiens with 9 samples.

Results

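The kinetochore is the protein structure that assembles on the centromere of each chromosome and holds it to spindle microtubules during mitosis. The 44 genes described here encode its parts, the factors that mark the centromere, and the checkpoint and passenger proteins that act on it. They were chosen by name from the deposited count table, which lists 58735 genes, and were divided into 7 role groups. All 44 passed the filter on low counts, which kept 15232 genes for testing.

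HEYA8 cells, from a human ovarian cancer line labelled wild type and high-grade serous, were given DMSO vehicle, sunitinib or compound 32. Each group held 3 libraries of poly(A)-selected RNA collected after 24 h. Sunitinib is an inhibitor of several receptor tyrosine kinases. The sources used here give neither the doses of the compounds nor the structure of compound 32, so no difference below is assigned to a structure or matched for dose. The series text speaks of biological replicates for the sunitinib and DMSO samples and not for compound 32. The p-values rest on a spread estimated over all groups together, and the spread between the compound 32 samples may be technical. The batch label is day 1 throughout, and no other treatment or genotype enters the comparisons.

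At the base of the structure, nucleosomes containing CENPA, a centromere-specific relative of histone H3, mark the site of assembly. An inner network of CENP proteins binds these nucleosomes for most of the cell cycle. The outer plate (KNL1, the MIS12 complex and the NDC80 complex) is added for mitosis and binds microtubules, and a fibrous corona and the spindle checkpoint act on top of it. The chromosomal passenger complex corrects wrong attachments. Many of these genes are transcribed mainly in late S phase, G2 or mitosis, so their level in a growing culture also follows how many cells are in those phases. In RNA from whole cultures, fewer cells in a phase and less RNA per cell cannot be told apart.

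Library totals ran from 15498101 to 18006171 counts. Sunitinib replicate 3 stood apart. Set against the other sunitinib libraries its counts gave chi-square values of 46.4 and 45.3 per degree of freedom, and other replicate pairs gave 1.86 to 3.22. Ribosomal protein transcripts took 7.58% of its counts and 4.14 to 5.00% of the counts of the other 8 libraries, and mitochondrial transcripts took 5.36% against 3.42 to 3.92%. Its part in the results was not tested beyond leaving it out. Of 9 epithelial or ovarian carcinoma markers, 6 averaged over 1 CPM (a count scaled to the library's total), led by keratins, while CDH1 and MUC16 were near 0. All 3 mesenchymal markers were over that level and none of 4 leukocyte markers was (summed level 0 to 0.454 CPM). The 3 endothelial markers summed to 7.39 to 10.2 CPM in DMSO, 13.5 to 17.3 CPM with sunitinib and 5.43 to 6.13 CPM with compound 32, and the 4 fibroblast markers to 1.64 to 4.66 CPM over all libraries. The part of these markers in the results was not tested.

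Sunitinib lowered most of the set. Of the 44 genes, 39 fell, none rose and 5 were not called (CENPH, CENPT, NSL1, SKA2 and MAD1L1), with a median log2 fold change of -0.79. A gene was called at an adjusted p under 0.05 (edgeR quasi-likelihood F test, Benjamini-Hochberg over all genes tested). Among all genes tested, 19.9% were called lower and 20.3% higher (40.2% in either direction), with a median of 0.02. With upper-quartile scaling in place of TMM the split of all calls went from 3036 lower and 3090 higher to 2316 and 3952, and 35 members were still called lower. Every one of the 7 role groups had a median between -0.71 and -0.89. Compound 32 split the set: 11 genes fell, 7 rose and 26 were not called, with a median of 0.02. Among all genes tested in that comparison 10.3% were called lower and 12% higher (22.3% in either direction). The share of members called higher, 7 of 44, was therefore close to that of genes in general. Without sunitinib replicate 3 in the fit the sunitinib count was 41 lower, beside 4096 of the 15580 genes then tested. The compound 32 counts were then 14 lower and 15 higher, beside 20.5% and 21.6% of all genes. The compound 32 libraries are the same in that refit, which changes the spread estimated across groups, the genes that pass the filter and the scaling factors.

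As a share of all counts, the 44 genes took 0.292 to 0.298% in the DMSO libraries, 0.182 to 0.190% with sunitinib and 0.252 to 0.255% with compound 32. The ranges of the 3 groups did not overlap. Both compounds were compared with the same DMSO libraries, so the values side by side below are not independent.

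**Figure D1:**
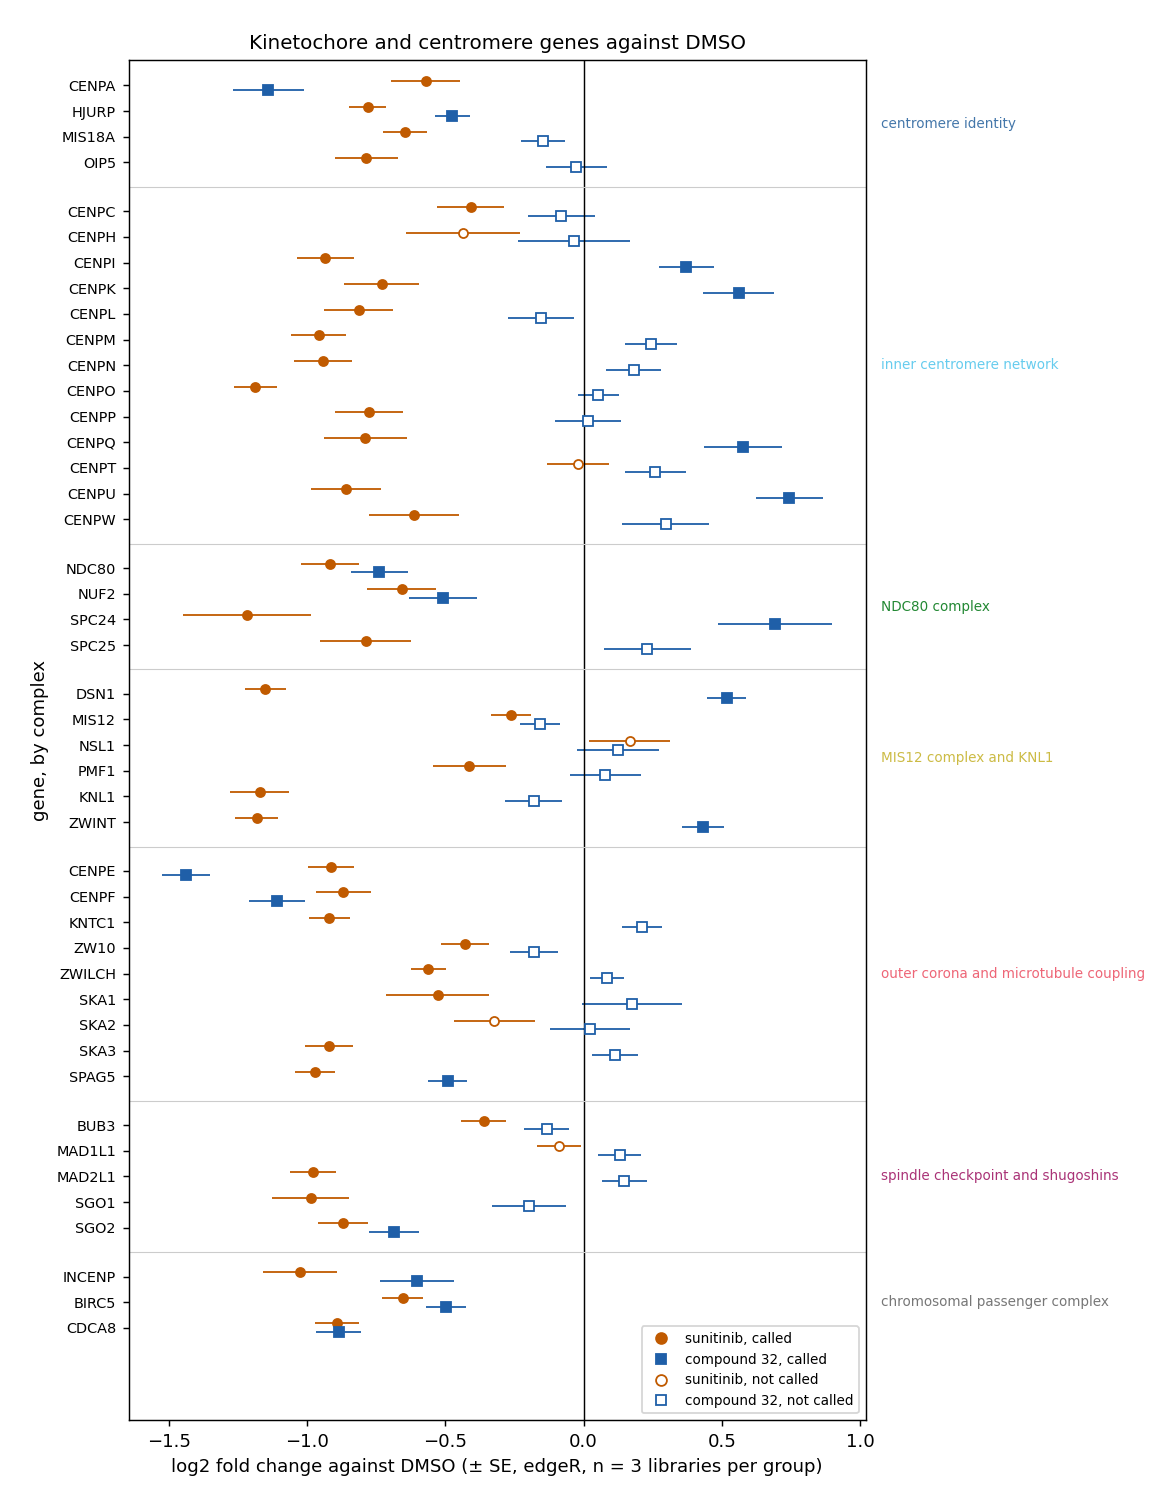
Fitted log2 fold change against DMSO for each gene (x axis), with genes on the y axis ordered by role group. Circles are sunitinib, squares are compound 32, filled symbols were called at an adjusted p under 0.05 and bars are ± 1 standard error (n = 3 libraries per group); 43 of the sunitinib values lie left of 0 and NSL1 lies right of it, while the compound 32 values run from CENPE at -1.44 to CENPU at 0.74.

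The 100 bases before the transcription start are shown for the 3 members with the lowest and the 3 with the highest called fold change with compound 32, among those with a promoter window, and for ZWINT, the one gene that rose whose window holds the letters TTTGAA. They are from RefSeq (GRCh38.p14, 5′ to 3′ on the gene's strand), where 36 of the 44 genes matched windows of 300 bases, 250 of them before the start. Capitals mark TTTGAA (the cell cycle genes homology region, or CHR), its variant TTCGAA and CCAAT, on either strand. CENPE, CENPA and CENPF fell with compound 32, the last 4 rose, and all 7 fell with sunitinib. CENPE has none of these letters in its window, and the TTTGAA of CENPF lies 40 bases after the start, outside the stretch shown. The stretches are CENPE chr4:103198344-103198443 (-), CENPA chr2:26785956-26786055 (+), CENPF chr1:214603095-214603194 (+), CENPU chr4:184734097-184734196 (-), SPC24 chr19:11155783-11155882 (-), CENPQ chr6:49463270-49463369 (+) and ZWINT chr10:56361260-56361359 (-).
CENPE: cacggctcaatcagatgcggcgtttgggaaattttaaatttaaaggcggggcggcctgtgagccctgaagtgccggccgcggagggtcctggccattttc
CENPA: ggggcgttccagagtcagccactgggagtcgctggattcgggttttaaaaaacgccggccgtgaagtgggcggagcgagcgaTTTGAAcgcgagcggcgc
CENPF: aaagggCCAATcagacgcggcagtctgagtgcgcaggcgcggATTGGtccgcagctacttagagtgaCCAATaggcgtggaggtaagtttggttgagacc
CENPU: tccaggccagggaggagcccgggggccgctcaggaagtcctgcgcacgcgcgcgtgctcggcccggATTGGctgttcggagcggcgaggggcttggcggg
SPC24: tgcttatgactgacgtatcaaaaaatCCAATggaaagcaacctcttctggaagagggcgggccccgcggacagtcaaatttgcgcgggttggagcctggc
CENPQ: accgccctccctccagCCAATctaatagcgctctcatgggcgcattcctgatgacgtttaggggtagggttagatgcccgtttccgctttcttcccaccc
ZWINT: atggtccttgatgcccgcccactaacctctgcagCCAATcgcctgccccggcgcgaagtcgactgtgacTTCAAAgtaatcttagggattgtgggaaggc

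A gene was counted where any of its windows held the letters. TTTGAA on either strand was found for 17 of the 36 genes (47.2%), against 18.2% of the 27305 genes in the RefSeq table. It was found for 8 of 10 genes that fell with compound 32, for 1 of 7 that rose (ZWINT) and for 8 of 19 not called. Within 50 bases of the start it was found for 14 of 36 (38.9%), against 5.77% of all genes. The variant TTCGAA was found for 4 of 36 (11.1%) against 1.82%: 1 of 10 that fell, 0 of 7 that rose and 3 of 19 not called. CCAAT was found for 24 of 36 (66.7%) against 39.7%, and was spread over genes that fell (6 of 10), rose (5 of 7) and were not called (13 of 19). Any of the E2F words TTTCCCGC, TTTGGCGC, TTTCGCGC and TTTGCCGC was found for 4 of 36 (11.1%) against 3.99%. Those matches were in 1 of 10 genes that fell, 1 of 7 that rose and 2 of 19 not called. The motifs and the genes printed were chosen with the results known, and these shares are descriptions without a test. A match is not a bound site, no match says only that the letters are not in the window, and other annotated starts exist for some genes.

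The 4 centromere identity genes all fell with sunitinib, and 2 of them, CENPA and its chaperone HJURP, also fell with compound 32. Of all genes tested, 19.9% were called lower with sunitinib and 10.3% with compound 32. CENPA (chr2:26764289-26801067, GRCh38) measured 32.6, 36.0 and 28.0 CPM in DMSO, 19.1, 20.5 and 25.7 CPM with sunitinib and 14.7, 14.02 and 15.2 CPM with compound 32. The 3 groups did not overlap, and compound 32 gave the lowest levels. The log2 fold change of CENPA was -0.57 ± 0.12 (SE) with sunitinib (edgeR, adjusted p = 0.00346) and -1.14 ± 0.13 with compound 32 (adjusted p = 9.74e-05). HJURP, which loads CENPA onto the centromere, measured 99.96, 96.8 and 100.7 CPM in DMSO, 55.2, 55.9 and 62.1 CPM with sunitinib and 70.6, 71.7 and 71.8 CPM with compound 32. Its order was the reverse, with sunitinib the lowest: -0.78 ± 0.07 (edgeR, adjusted p = 4.38e-06) against -0.47 ± 0.06 (adjusted p = 0.000406). OIP5 (also MIS18B) and MIS18A form the complex that prepares the centromere for new CENPA. OIP5 stood at 16.7, 15.5 and 14.3 CPM in DMSO, 10.3, 8.25 and 8.32 CPM with sunitinib and 15.4, 15.3 and 15.001 CPM with compound 32. The compound 32 libraries of OIP5 lay inside the DMSO range. MIS18A had a log2 fold change of -0.65 with sunitinib, where it was called, and -0.15 with compound 32, where it was not. HJURP stood at 2.69 to 3.59 times the CPM of CENPA in DMSO, 2.41 to 2.90 times with sunitinib and 4.73 to 5.12 times with compound 32. This ratio was taken after the values were seen and is given without a test.

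The inner centromere network bridges CENPA nucleosomes and the outer plate. Of its 13 genes, 11 fell with sunitinib, and with compound 32 none fell and 4 rose. All genes tested gave 19.9% lower with sunitinib, and 10.3% lower and 12% higher with compound 32. The summed level of the 13 was 359 to 371 CPM in DMSO, 199 to 236 CPM with sunitinib and 434 to 450 CPM with compound 32, 3 ranges apart from each other. CENPO, of the CENP-O/P/Q/U arm, had the smallest p with sunitinib. It measured 59.5, 56.5 and 59.1 CPM in DMSO, 26.04, 27.0 and 23.8 CPM with sunitinib and 59.4, 65.1 and 57.3 CPM with compound 32. Sunitinib left 43.9% of the DMSO level (log2 -1.19 ± 0.08, edgeR, adjusted p = 7.19e-07), while compound 32 overlapped DMSO (0.05 ± 0.07, adjusted p = 0.664). CENPP, of the same arm, stood at -0.78 with sunitinib, where it was called, and at 0.02 with compound 32, where it was not.

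The 4 network genes that rose with compound 32 were CENPU, CENPQ, CENPK and CENPI, and each of them fell with sunitinib. CENPU (chr4:184694618-184734133), which recruits the kinase PLK1 to the centromere, measured 38.1, 45.6 and 43.7 CPM in DMSO, 20.3, 20.9 and 29.2 CPM with sunitinib and 72.2, 72.2 and 69.0 CPM with compound 32. Every library lay in its own group's range, sunitinib lowest and compound 32 highest. The log2 fold change of CENPU was -0.86 ± 0.13 with sunitinib (edgeR, adjusted p = 0.000281) and 0.74 ± 0.12 with compound 32 (adjusted p = 0.00129). CENPQ, its partner, measured 12.9, 14.6 and 13.4 CPM in DMSO, 6.83, 6.88 and 10.1 CPM with sunitinib and 19.98, 22.5 and 18.7 CPM with compound 32. CENPK and CENPI belong to the CENP-H/I/K/M arm, which links the network to the outer plate. CENPK measured 34.0, 33.4 and 32.3 CPM in DMSO, 16.6, 18.1 and 25.6 CPM with sunitinib and 52.2, 48.6 and 46.2 CPM with compound 32. CENPI, at 35.2, 39.8 and 37.8 CPM in DMSO, stood at 21.6, 20.2 and 17.2 CPM with sunitinib and 53.9, 46.4 and 45.8 CPM with compound 32. In all 3 genes the groups were separate and in the same order as for CENPU. With compound 32 the log2 fold change was 0.58 ± 0.14 for CENPQ (edgeR, adjusted p = 0.0126), 0.56 ± 0.13 for CENPK (adjusted p = 0.00974) and 0.37 ± 0.10 for CENPI (adjusted p = 0.0192). The CENPQ call was lost without DMSO replicate 1 or 3 or compound 32 replicate 2 (edgeR, adjusted p = 0.0517 to 0.0652), and the CENPI call without DMSO replicate 1 or 3 or compound 32 replicate 1 (adjusted p = 0.0683 to 0.098).

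Within the same arm, CENPM fell with sunitinib by 0.96 on the log2 scale and CENPH was not called. CENPH measured 19.8, 21.5 and 19.3 CPM in DMSO, 12.3, 10.7 and 21.9 CPM with sunitinib and 19.6, 19.6 and 19.9 CPM with compound 32. Its sunitinib value (-0.44 ± 0.21, edgeR, adjusted p = 0.113) rested on replicate 3, which was above every DMSO library. Without that replicate CENPH was called lower, at -0.80 (edgeR, adjusted p = 4.14e-09). CENPN, which contacts the CENPA nucleosome, and CENPL fell with sunitinib by 0.94 and 0.81 on the log2 scale. Their compound 32 values were 0.18 and -0.15, neither called. CENPC, the main scaffold of the network, fell by 0.41 with sunitinib and stood at -0.08 with compound 32. That sunitinib call was lost without DMSO replicate 2 or 3 or sunitinib replicate 2 (adjusted p = 0.0506 to 0.0577). CENPW and CENPT form a histone-fold pair that recruits the outer plate, and only the first of them was called: CENPW fell by 0.61 with sunitinib. CENPT measured 22.5, 19.4 and 20.4 CPM in DMSO, 19.6, 22.8 and 19.1 CPM with sunitinib and 24.8, 21.97 and 27.8 CPM with compound 32, and all groups overlapped. Compound 32 values that missed the threshold were 0.25 for CENPM, 0.30 for CENPW and 0.26 for CENPT. These and CENPN were called higher without sunitinib replicate 3, at 0.25, 0.30, 0.26 and 0.18 (edgeR, adjusted p = 0.0117, 0.00331, 0.0125 and 0.0299).

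The NDC80 complex is the rod that grips microtubules, with NDC80 and NUF2 at the microtubule end and SPC24 and SPC25 at the centromere end. All 4 genes fell with sunitinib. With compound 32 the microtubule-end pair fell, SPC24 rose and SPC25 was not called. For comparison, 19.9% of all genes tested fell with sunitinib, and 10.3% fell and 12% rose with compound 32. NDC80 (chr18:2571511-2616635) measured 74.1, 80.6 and 74.9 CPM in DMSO, 35.5, 37.8 and 48.6 CPM with sunitinib and 47.2, 45.1 and 45.4 CPM with compound 32. Both treated groups lay below every DMSO library and overlapped each other. The log2 fold change of NDC80 was -0.92 ± 0.10 with sunitinib (edgeR, adjusted p = 4.42e-05) and -0.74 ± 0.10 with compound 32 (adjusted p = 0.000468). NUF2 followed at -0.66 and -0.51, and its compound 32 call was lost without compound 32 replicate 3 (edgeR, adjusted p = 0.0539). SPC24 (chr19:11131520-11155808) measured 10.51, 12.1 and 10.2 CPM in DMSO, 3.18, 3.84 and 7.28 CPM with sunitinib and 18.04, 17.6 and 17.5 CPM with compound 32. No group overlapped another, and sunitinib replicate 3 was the highest of its group. The log2 fold change of SPC24 was -1.22 ± 0.23 with sunitinib (edgeR, adjusted p = 0.00158) and 0.69 ± 0.21 with compound 32 (adjusted p = 0.0329). The compound 32 call was lost when any DMSO or compound 32 library was left out (adjusted p = 0.0674 to 0.113) and was kept without sunitinib replicate 3 (log2 0.69). SPC25 had values of -0.79 with sunitinib, called, and 0.23 ± 0.16 with compound 32, not called (edgeR, adjusted p = 0.336). It was called higher without sunitinib replicate 3, at 0.23 (adjusted p = 0.0364).

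Because the 4 subunits form 1 rod, their ratios within a library were also taken, a measure chosen after the values were seen and given without a test. The CPM of SPC24 was 0.136 to 0.149 of that of NDC80 in DMSO and 0.382 to 0.390 with compound 32, while the sunitinib libraries stood at 0.0894, 0.102 and 0.150. The ratio of SPC25 to NUF2 was 0.288 to 0.322 in DMSO, 0.253 to 0.298 with sunitinib and 0.502 to 0.533 with compound 32. Under compound 32 the transcripts of the centromere end thus stood higher relative to those of the microtubule end in all 3 libraries. Per kilobase of exon, the mean DMSO level of NDC80 was 21.3 CPM and that of SPC24 was 3.85 CPM.

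**Figure D2:**
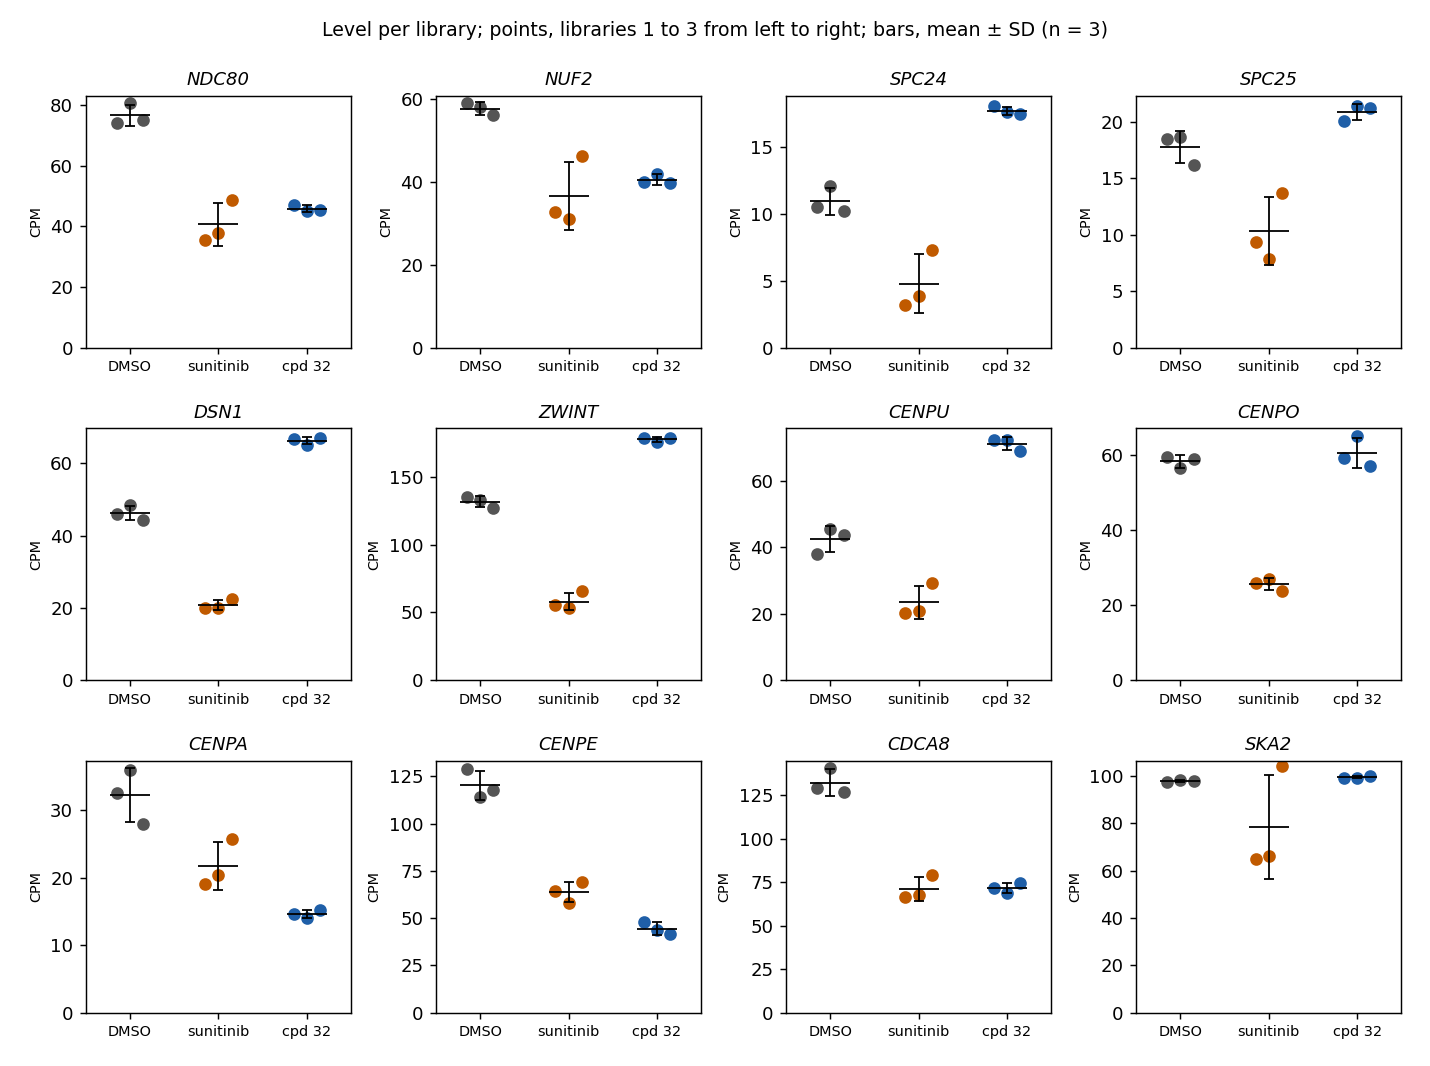
Level of 12 members in CPM (y axes, from 0) in each of the 9 libraries, with libraries 1 to 3 of a group from left to right and bars for the mean ± SD (n = 3). SPC24, DSN1, ZWINT and CENPU were highest with compound 32 and lowest with sunitinib, and NDC80, NUF2, CENPA, CENPE and CDCA8 were below DMSO with both. Sunitinib replicate 3 was above its replicates in every gene shown except CENPO.

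KNL1, ZWINT and the MIS12 complex join the inner network to the NDC80 rod. Of these 6 genes, 5 fell with sunitinib, and with compound 32 DSN1 and ZWINT rose and 4 were not called. In general, 19.9% of genes tested fell with sunitinib and 12% rose with compound 32. DSN1 (chr20:36751791-36773818), the MIS12 complex subunit through which Aurora B controls binding to CENPC, measured 45.9, 48.4 and 44.4 CPM in DMSO, 20.01, 20.03 and 22.5 CPM with sunitinib and 66.7, 65.0 and 66.9 CPM with compound 32. ZWINT (chr10:56357228-56361275), which binds KNL1 and helps to recruit the corona, measured 134.9, 132.6 and 127.0 CPM in DMSO, 55.2, 53.3 and 65.4 CPM with sunitinib and 178.5, 175.7 and 178.6 CPM with compound 32. In both genes the groups were far apart relative to the spread within each. With sunitinib DSN1 changed by -1.15 ± 0.08 (edgeR, adjusted p = 6.78e-07) and ZWINT by -1.18 ± 0.08 (adjusted p = 7.78e-07). With compound 32 DSN1 changed by 0.52 ± 0.07 (edgeR, adjusted p = 0.00041) and ZWINT by 0.43 ± 0.08 (adjusted p = 0.00209). KNL1, the scaffold for checkpoint kinases, fell with sunitinib by 1.17 on the log2 scale and had a value of -0.18 with compound 32, called lower without sunitinib replicate 3 (-0.18, edgeR, adjusted p = 0.00457).

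The other MIS12 subunits moved less. MIS12 itself fell by 0.26 on the log2 scale with sunitinib and PMF1 by 0.41, and their compound 32 values were -0.16 and 0.08, not called. The PMF1 call was lost without DMSO replicate 1 or 2 or sunitinib replicate 1 (edgeR, adjusted p = 0.067 to 0.0921). NSL1 measured 23.6, 25.0 and 21.3 CPM in DMSO, 23.3, 22.3 and 33.0 CPM with sunitinib and 29.2, 23.2 and 23.8 CPM with compound 32. The highest NSL1 value was that of sunitinib replicate 3, and the other 8 libraries of the 3 groups overlapped. The level of DSN1 was 1.23 to 1.36 times that of MIS12 in DMSO, 0.664 to 0.746 times with sunitinib and 1.99 to 2.19 times with compound 32. These ratios, too, were taken after the values were seen.

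Of the 9 corona and microtubule-coupling genes, 8 fell with sunitinib. With compound 32 CENPE, CENPF and SPAG5 fell and the 6 others, the RZZ and SKA complexes, were not called. The shares of all genes tested that fell were 19.9% with sunitinib and 10.3% with compound 32. CENPE (chr4:103105806-103198409), the kinesin that carries chromosomes to the spindle equator, measured 128.8, 114.1 and 117.9 CPM in DMSO, 64.5, 58.2 and 68.9 CPM with sunitinib and 48.2, 43.5 and 41.5 CPM with compound 32. Like CENPA, CENPE was lowest with compound 32 and the groups did not overlap. Its log2 fold change was -0.91 ± 0.08 with sunitinib (edgeR, adjusted p = 9.28e-06) and -1.44 ± 0.09 with compound 32 (adjusted p = 8.29e-07). CENPF, a large corona protein that binds dynein regulators, fell by 0.87 and 1.11. SPAG5 (astrin), which steadies correct attachments, measured 77.7, 81.4 and 82.5 CPM in DMSO, 40.3, 38.4 and 44.6 CPM with sunitinib and 56.6, 58.1 and 57.1 CPM with compound 32. Compound 32 lay between the others for SPAG5, with -0.97 ± 0.07 for sunitinib (edgeR, adjusted p = 1.62e-06) and -0.49 ± 0.07 for compound 32 (adjusted p = 0.000531).

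KNTC1 (ROD), ZW10 and ZWILCH make up the RZZ complex, which builds the corona and brings MAD1 and MAD2 to it. KNTC1 measured 87.6, 89.4 and 89.4 CPM in DMSO, 49.2, 48.9 and 42.5 CPM with sunitinib and 99.2, 109.2 and 100.3 CPM with compound 32. All 3 compound 32 libraries were above DMSO, but the difference missed the threshold (0.21 ± 0.07, edgeR, adjusted p = 0.0563) and passed it without sunitinib replicate 3 (0.21, adjusted p = 0.000223). With sunitinib KNTC1 fell by 0.92, ZWILCH by 0.56 and ZW10 by 0.43, and compound 32 values of the latter pair were 0.08 and -0.18. Without that replicate ZW10 was called lower with compound 32, at -0.18 (edgeR, adjusted p = 0.0138). The SKA complex tracks shrinking microtubules. SKA3 fell by 0.92 with sunitinib and SKA1 by 0.53, with compound 32 values of 0.11 and 0.17, not called. The SKA1 call was lost without any of the DMSO libraries, sunitinib replicate 1 or 2, or compound 32 replicate 3 (edgeR, adjusted p = 0.0604 to 0.131), and without sunitinib replicate 3 SKA1 stood at -0.82. SKA2 measured 97.7, 98.6 and 97.8 CPM in DMSO, 64.9, 66.5 and 104.1 CPM with sunitinib and 99.4, 99.2 and 100.05 CPM with compound 32. Only sunitinib replicates 1 and 2 were low. SKA2 was not called with sunitinib (-0.32 ± 0.14, edgeR, adjusted p = 0.0969) and was called lower without replicate 3, at -0.58 (adjusted p = 6.79e-14).

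The spindle checkpoint delays anaphase until chromosomes are attached, and shugoshins protect the cohesin that holds sister centromeres together. Of these 5 genes, 4 fell with sunitinib, and with compound 32 SGO2 fell and 4 were not called. Genes tested as a whole gave 19.9% lower with sunitinib and 10.3% lower with compound 32. MAD2L1, which encodes the checkpoint effector MAD2, measured 90.6, 94.7 and 86.1 CPM in DMSO, 42.2, 44.02 and 51.6 CPM with sunitinib and 95.8, 100.3 and 104.5 CPM with compound 32. Sunitinib left 50.7% of the DMSO level (-0.98 ± 0.08, edgeR, adjusted p = 5.05e-06), and the compound 32 difference missed the threshold (0.15 ± 0.08, adjusted p = 0.227). Without sunitinib replicate 3 it passed, at the same size (0.15, edgeR, adjusted p = 0.0108). MAD1L1, the docking partner of MAD2, was not called against DMSO with either compound (-0.09 and 0.13), and with compound 32 it passed without that replicate (0.13, adjusted p = 0.0488). BUB3, which binds phosphorylated KNL1, fell by 0.36 with sunitinib and stood at -0.13 with compound 32, called lower without that replicate (-0.13, adjusted p = 0.00221). SGO2 measured 42.6, 40.4 and 35.2 CPM in DMSO, 21.9, 20.4 and 22.4 CPM with sunitinib and 25.7, 24.8 and 23.1 CPM with compound 32. Its values were -0.87 ± 0.09 with sunitinib (edgeR, adjusted p = 2.25e-05) and -0.68 ± 0.09 with compound 32 (adjusted p = 0.000307). SGO1 fell with sunitinib by 0.99 and was not called with compound 32 (-0.20).

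The 3 chromosomal passenger genes fell with both compounds, beside 19.9% of all genes tested with sunitinib and 10.3% with compound 32. INCENP is the scaffold that activates Aurora B, and BIRC5 (survivin) and CDCA8 (borealin) place the complex on centromeric chromatin. The summed level of the 3 was 459 to 471 CPM in DMSO, 256 to 265 CPM with sunitinib and 295 to 307 CPM with compound 32. CDCA8 (chr1:37692418-37709719) measured 128.9, 140.8 and 126.7 CPM in DMSO, 66.6, 67.8 and 79.3 CPM with sunitinib and 71.6, 68.7 and 74.3 CPM with compound 32. The compound 32 libraries of CDCA8 lay inside the sunitinib range. Its log2 fold change was -0.89 ± 0.08 with sunitinib (edgeR, adjusted p = 7.6e-06) and -0.89 ± 0.08 with compound 32 (adjusted p = 1.99e-05). INCENP measured 157.0, 148.6 and 155.9 CPM in DMSO, 79.3, 91.3 and 55.9 CPM with sunitinib and 97.9, 104.3 and 101.4 CPM with compound 32. Here sunitinib replicate 3 was the lowest library. INCENP fell by 1.03 with sunitinib and 0.60 with compound 32, and BIRC5 by 0.65 and 0.50.

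Compound 32 and sunitinib were then compared directly, 1 test for each of the 44 genes. Compared with sunitinib, 31 genes were higher with compound 32, 2 were lower and 11 were not called, with a median log2 difference of 0.57. Among all genes tested 24.1% were called higher and 25.2% lower (49.2% in either direction), with a median of -0.03. SPC24 differed most, at 1.91 ± 0.23 (edgeR, adjusted p = 3.57e-05), followed by DSN1 at 1.67 ± 0.07 (adjusted p = 2.13e-08), ZWINT at 1.62 ± 0.08 and CENPU at 1.60 ± 0.13. The inner network had the largest group median, 1.12, with 11 of 13 genes higher. CENPA, at -0.57 ± 0.13 (edgeR, adjusted p = 0.00345), and CENPE, at -0.52 ± 0.09 (adjusted p = 0.000398), were lower with compound 32. MAD1L1, called against DMSO with neither compound, was called higher with compound 32 than with sunitinib, at 0.22 ± 0.08. Its call, like those of CENPC, ZW10, BUB3 and INCENP (log2 differences of 0.23 to 0.42), did not hold in every fit that left out 1 library: INCENP missed the threshold without compound 32 replicate 2 or 3, MAD1L1 without sunitinib replicate 1 or compound 32 replicate 1 or 3, and ZW10 without sunitinib replicate 1 or 2 or any compound 32 library. CENPC was lost in 7 of the 9 such fits, all but those without sunitinib replicate 1 or 3, and BUB3 in 7, all but those without DMSO replicate 3 or sunitinib replicate 3.

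For the genes not called in the direct comparison, the 95% interval of the log2 difference shows what sizes remain possible. It was -0.17 to 0.18 for CDCA8, -0.05 to 0.41 for NDC80, -0.12 to 0.42 for NUF2 and -0.02 to 0.39 for SGO2. For BIRC5 the upper end was 0.32, and for CENPF the interval was -0.46 to -0.02. It was -0.05 to 0.26 for MIS12, -0.37 to 0.28 for NSL1 and 0.04 to 0.52 for CENPT. It was -0.05 to 0.85 for CENPH, the widest of the 11, and 0.03 to 0.66 for SKA2. Intervals that leave out 0 but were not called had adjusted p-values over the threshold. Without sunitinib replicate 3 the direct comparison called 38 higher and 3 lower. NDC80 then stood at 0.33 (edgeR, adjusted p = 3.29e-05), NUF2 at 0.35, SGO2 at 0.22, BIRC5 at 0.24 and CENPF at -0.35, all called. CENPH at 0.77, SKA2 at 0.60 and CENPT at 0.24 were called too. CDCA8, MIS12 and NSL1 (0.15) were not called in that fit either, and the INCENP difference, called in both fits, moved from 0.42 to 0.25.

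**Figure D3:**
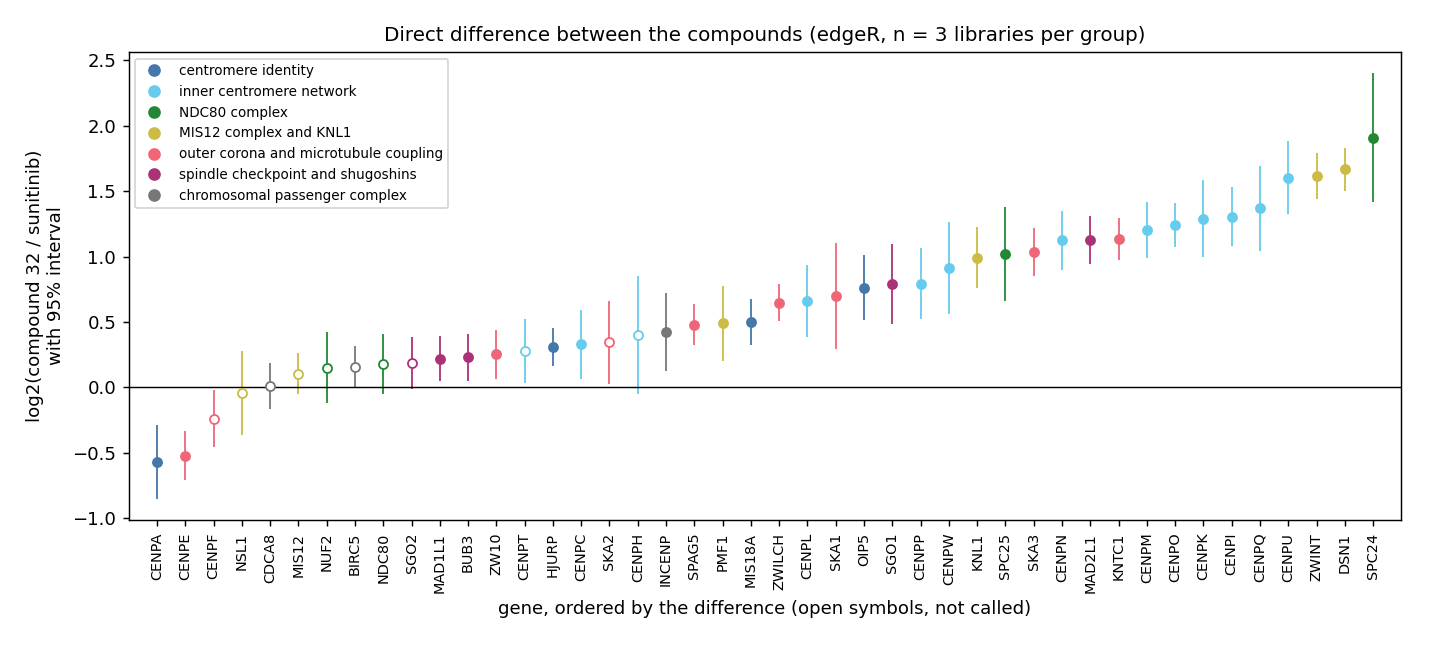
Log2 ratio of compound 32 to sunitinib (y axis) for the 44 genes in order of size (x axis), coloured by role group, with 95% intervals; filled symbols were called at an adjusted p under 0.05 (edgeR, n = 3 libraries per group). CENPA and CENPE are the filled symbols below 0, and inner network genes, KNTC1, MAD2L1, DSN1, ZWINT and SPC24 take up the right end from CENPN at 1.12 to SPC24 at 1.91.

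Sunitinib replicate 3 deviated from the mean of its replicates by -0.60 (INCENP) to 0.96 (SPC24) on the log2 CPM scale over the 44 genes, with a median of 0.23 and 33 of 44 above 0. The same deviation was -0.29 to 0.27 for DMSO replicate 3 and -0.20 to 0.25 for compound 32 replicate 3. Short members such as SPC24, CENPH and CENPW stood high in sunitinib replicate 3, and long ones such as KNL1 and CENPF stood low. Exceptions included OIP5, short and low (-0.14), and BUB3 and CENPE, long and high (0.29 and 0.17). Across the 44 genes the Spearman correlation of the deviation with exon length was -0.55 for sunitinib, 0.56 for DMSO and -0.34 for compound 32. These are descriptions over genes of the same libraries, and genes are not independent replicates. Over all 15232 genes the correlation was -0.29 for sunitinib, 0.13 for DMSO and -0.16 for compound 32. The part of RNA quality or library preparation in these deviations was not tested.

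**Figure D4:**
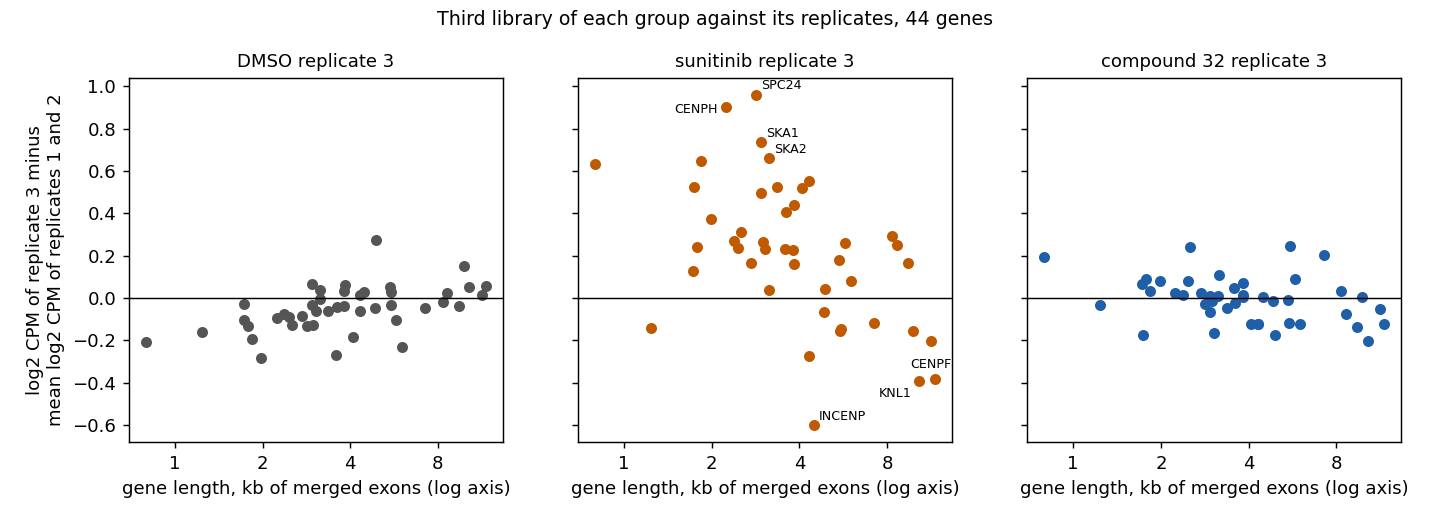
Log2 CPM of replicate 3 minus the mean of replicates 1 and 2 (y axis) against the length of merged exons in kb (x axis, log scale), 1 point per gene, for DMSO, sunitinib and compound 32. The sunitinib points reach from -0.60 to 0.96, while the DMSO and compound 32 points stay within -0.29 to 0.27.

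A list of 29 other kinetochore and centromere genes was read beside the set. With sunitinib 19 fell and none rose (median -0.51), and with compound 32 12 fell and 3 rose (median -0.14). Among all genes tested, 19.9% were called lower with sunitinib, and 10.3% lower and 12% higher with compound 32. The share that rose with compound 32, 3 of 29, was close to that of all genes. PLK1, the mitotic kinase that docks on CENPU, averaged 174.1 CPM in DMSO, 84.1 CPM with sunitinib and 43.8 CPM with compound 32. It fell by 1.05 ± 0.06 with sunitinib (edgeR, adjusted p = 3.18e-07) and by 1.99 ± 0.06 with compound 32 (adjusted p = 1.22e-08). BUB1, a checkpoint kinase bound to KNL1, fell by 1.09 with sunitinib and 0.85 with compound 32, and KIF2C, a microtubule depolymerase of the centromere, fell by 1.11 with compound 32. The 3 that rose with compound 32 were ITGB3BP (CENPR, of the arm that holds CENPU and CENPQ), NDEL1 and CENPX. ITGB3BP rose by 0.40 ± 0.13 (edgeR, adjusted p = 0.0471), NDEL1 by 0.34 ± 0.06 (adjusted p = 0.00309) and CENPX by 0.31 ± 0.10 (adjusted p = 0.0495). The calls of ITGB3BP and CENPX were close to the threshold, and other fits were not examined for this list. In the direct comparison 15 of the 29 were higher with compound 32, beside 24.1% of all genes tested. Among the 15 was AURKB, the passenger complex kinase, higher by 0.76 ± 0.07. Against DMSO AURKB was called lower with both compounds (-0.97 with sunitinib and -0.20 with compound 32). PLK1 (-0.94), KIF2C (-0.34) and KIF18A (-0.56) were lower with compound 32 than with sunitinib, beside 25.2% of all genes tested.

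A pair of cell cycle lists gives the setting of these changes. Over all genes tested, 19.9% were called lower with sunitinib, and 10.3% lower and 12% higher with compound 32. All 25 DNA replication and S phase genes fell with sunitinib (median -1.29), and with compound 32 none fell and 18 rose (median 0.37). Of 20 mitotic genes outside the kinetochore, 19 fell with sunitinib (median -0.80) and 16 fell and none rose with compound 32 (median -0.61). Beside these, the medians of the inner network were -0.79 with sunitinib and 0.25 with compound 32, and those of the passenger complex were -0.89 and -0.60. Of 24 ribosomal protein genes, 11 rose with sunitinib, beside 20.3% of all genes tested, and none was called with compound 32. Ribosomal protein transcripts took 7.58% of the counts of sunitinib replicate 3, and 4.90 and 5.00% of those of replicates 1 and 2. The part of cell cycle phase in the kinetochore values was not tested.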

How the data were processed

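RNA of 9 HEYA8 cultures (3 per group, 24 h) was measured by RNA-seq. The deposited values are raw read counts per gene with gene lengths in bases. The submitters' processing notes name fastp, HISAT2 2.0.5, featureCounts, DESeq2 and edgeR, and list hg38 beside a mouse build with no role given. No source used here gives the strand setting. All 58735 gene names and coordinates equal those of GENCODE 29. Counts (15498101 to 18006171 per library) were filtered with filterByExpr, scaled by TMM and fitted with edgeR 4.0.16 (R 4.3.3) as group means over all 9 libraries, with robust quasi-likelihood F tests, 6 residual degrees of freedom and Benjamini-Hochberg adjustment over 15232 genes in each of 3 comparisons. DESeq2 1.42.0, limma 3.58.1 and other alternatives were tried. The code was tested on simulated data. Groups came from the labels. CPM use TMM-scaled totals.

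The members and lists were chosen with earlier results of these data known. All 44 genes are named. Values in every library are given for the gene with the smallest p per role group and comparison, for genes called in opposite directions against DMSO and for genes called in no comparison. Some other genes are shown in the plot of levels by library.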

Additional observations from a re-analysis of the deposited data

How the results depend on the processing

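Over the alternatives tried no value changed sign past its threshold. Genes called lower with sunitinib numbered 34 to 41 of 44, those lower with compound 32 numbered 10 to 14, and in the direct comparison 26 to 38 were higher and 2 to 3 lower. The count that moved by over 1.5 times was that of genes higher with compound 32 (7): it was 14 with only the 6 libraries compared and 4 at an adjusted p under 0.01. It ranged from 4 to 15 when 1 library was left out, with 4 without DMSO replicate 1 or 3 and 15 without sunitinib replicate 3. The share of all genes called higher moved too, from 12% to 22.4% with only the 6 libraries and 6.41% at the stricter threshold. That share was 7.68% without DMSO replicate 1, 7.44% without DMSO replicate 3 and 21.6% without sunitinib replicate 3. Upper-quartile factors shifted the median of all genes to 0.10 with sunitinib and gave 2316 genes lower and 3952 higher, against 3036 and 3090 with TMM; 35 members were lower and none higher, the calls of CENPC, MIS12, PMF1 and SKA1 being lost. All calls of the 19 alternatives matched for 37 genes with sunitinib, 29 with compound 32 and 31 in the direct comparison. With the replicate number as a block, 39 genes were lower with sunitinib, 11 lower and 7 higher with compound 32, and 30 higher and 2 lower in the direct comparison, where CENPC and MAD1L1 were lost and SKA2 was gained. The numbers showed no sign of pairing the samples. Deviations of same-numbered samples correlated at -0.11 to 0.08 over 9 pairs, and those of other-numbered samples at -0.09 to 0.12. With 3 libraries per group these correlations cannot exclude a pairing. Member counts ran from 60 per library upward, so the least abundant genes (SPC24, CENPP, CENPQ) carry the most counting error.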

Other observations

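Exons of several members overlap those of other genes, and with the strand setting unknown, reads there cannot be told apart. OIP5 shares 38.0% of its exon bases with OIP5-AS1, CENPP 38.0% with IPPK, CENPO 27.0% with ADCY3 on the opposite strand and PMF1 23.3% with PMF1-BGLAP. ADCY3 fell with sunitinib by 0.72 on the log2 scale, beside 1.19 for CENPO. IPPK also fell with sunitinib, by 0.49, beside 0.78 for CENPP. OIP5-AS1 was not called with sunitinib (0.17), and its mean level of 88.9 CPM was above that of OIP5. CENPA shares 6.96% of its exon bases with SLC35F6 on the same strand, and SLC35F6 fell with compound 32 by 0.47.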
